A study of Homo sapiens with 44 samples.

Results

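Transcripts of 6 genes, of the 14884 with a symbol on the arrays, were much lower in ZR-75-1 breast cancer cells after estrogen priming than in unprimed cells, and their levels were followed through a progestin time course to see which of them progestins restored. They are *VGLL1*, *SPNS2*, *ERP27*, *GDPD3*, *VTCN1* and *KMO*. For each gene the transcript cluster of highest mean over all arrays was used, and each had only 1. The genes were taken from the largest falls with estrogen priming, so the difference between unprimed and primed cells that chose them is a description here and carries no test. *VGLL1* and *SPNS2* rose with both progestins and after 16 h had regained from 51.9% to 87.5% of the log2 difference. *ERP27*, *GDPD3*, *VTCN1* and *KMO* stayed far below their unprimed levels on every primed array.

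ZR-75-1 is an established human luminal line that has receptors for both hormones. Cells at passage 16 were grown in hormone-stripped serum and primed for 72 h with 10 nM estradiol (E2), written E2p, or held in ethanol vehicle. A concentrated stock was then overlaid at 1:10 of the culture volume. No removal of the priming medium is described, so E2 was still present when progestins were added. The overlay on primed cells was vehicle (0, 4, 8 or 16 h), progesterone (P4) or the synthetic progestin medroxyprogesterone acetate (MPA), both at 10 nM (4, 8 or 16 h). At 16 h it was also E2 at 10 nM, without progestin or with either of them. Unprimed cells had vehicle for 72 h and again for 16 h, and no unprimed group had a progestin. The 14 groups held 3 arrays each, except E2+P4 with 5, which made 44 arrays. All results come from 1 cell line, and the labels do not say whether replicates were separate experiments, so the spread behind the p-values may be technical.

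Estradiol acts through the estrogen receptor, which raises many genes in luminal breast cancer cells and lowers others. The progesterone receptor is itself a gene that estrogen raises in such cells, and progestins then act on many of the same genes through it. The members have unrelated roles. VGLL1 is a cofactor of the TEAD transcription factors. SPNS2 exports sphingosine 1-phosphate from cells. ERP27 is a non-catalytic member of the protein disulfide isomerase family in the endoplasmic reticulum. GDPD3 is an enzyme that cleaves lysophospholipids, and KMO hydroxylates kynurenine in tryptophan breakdown. VTCN1, also called B7-H4, is a cell surface protein of the B7 family that restrains T cells.

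Values are log2 signals from RMA, so a difference of 1 is a 2-fold change. Array medians lay between 5.52 and 5.67 and interquartile ranges between 2.89 and 3.14. All 6 genes passed the filter on low values, since each exceeded the 30th percentile of signals on all 44 arrays. Of 8 luminal breast markers, 7 were measured and each was above that percentile on all arrays, *ESR1* and *PGR* among them. Of 5 fibroblast markers only 2, *DCN* and *LUM*, were measured, and they were above it on 0 arrays. Measured markers of other cells were 2 of 5 basal, 3 of 4 endothelial and 2 of 5 immune. Of these, *KRT5*, *VWF*, *KDR* and *LYZ* were above that percentile on 44 arrays, *PECAM1* on 43, *KRT14* on 41 and *CD14* on 40, and their part in the results was not tested. Bulk RNA cannot tell fewer cells that express a gene from less RNA per cell. Changes were tested with limma in a single fit of all arrays over 41374 clusters, and a gene is called raised or lowered at a Benjamini-Hochberg adjusted p of at most 0.05. Because the 16 h vehicle arrays helped to choose the genes, 16 h groups were tested against the mean of the 4 h and 8 h vehicle groups. Calls and p-values against the 16 h vehicle itself are given beside these as a description, and no support is drawn from them. Comparisons of P4 and MPA with vehicle at a given time share those vehicle arrays, and the 16 h tests share them with the 4 h and 8 h tests. Whether the arrays of groups overlap is given throughout as a description, since such separation was not counted over all clusters.

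In primed cells the level was lower by 9.18-fold for *VGLL1*, 6.87-fold for *ERP27*, 5.78-fold for *VTCN1*, 5.29-fold for *GDPD3*, 4.54-fold for *SPNS2* and 4.20-fold for *KMO*, as the difference of the 16 h vehicle groups. In GRCh38.p14 coordinates *VGLL1* spans chrX:136532215-136556799, *ERP27* chr12:14914039-14938537, *VTCN1* chr1:117143587-117210927, *GDPD3* chr16:30104810-30113537, *SPNS2* chr17:4498881-4539035 and *KMO* chr1:241532378-241595642. The differences were 6 of the 8 largest falls among named genes. *KRT80* (-2.51 on the log2 scale) and *OXGR1* (-2.27) lay among them and are not members, and the next fall after *KMO* (-2.07) was that of *ARHGEF6* (-2.03). Across all clusters tested, 4.95% were lower in primed cells by the same test, a share from which nothing is read because the genes were chosen on it. On the vehicle arrays not used for that choice (0, 4 and 8 h) the 6 genes were low as well, and no vehicle array of any time reached an unprimed one. No member was called among the 0, 4 and 8 h vehicle groups by limma's moderated F-test, in which 2.03% of clusters were called, although 4 had an unadjusted p under 0.05. The nearest was *GDPD3*, which was -0.76 at 4 h and -0.36 at 8 h relative to 0 h (adjusted p = 0.0515 by limma, and 0.0312 without vehicle 4 h replicate 2).

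**Figure D1:**
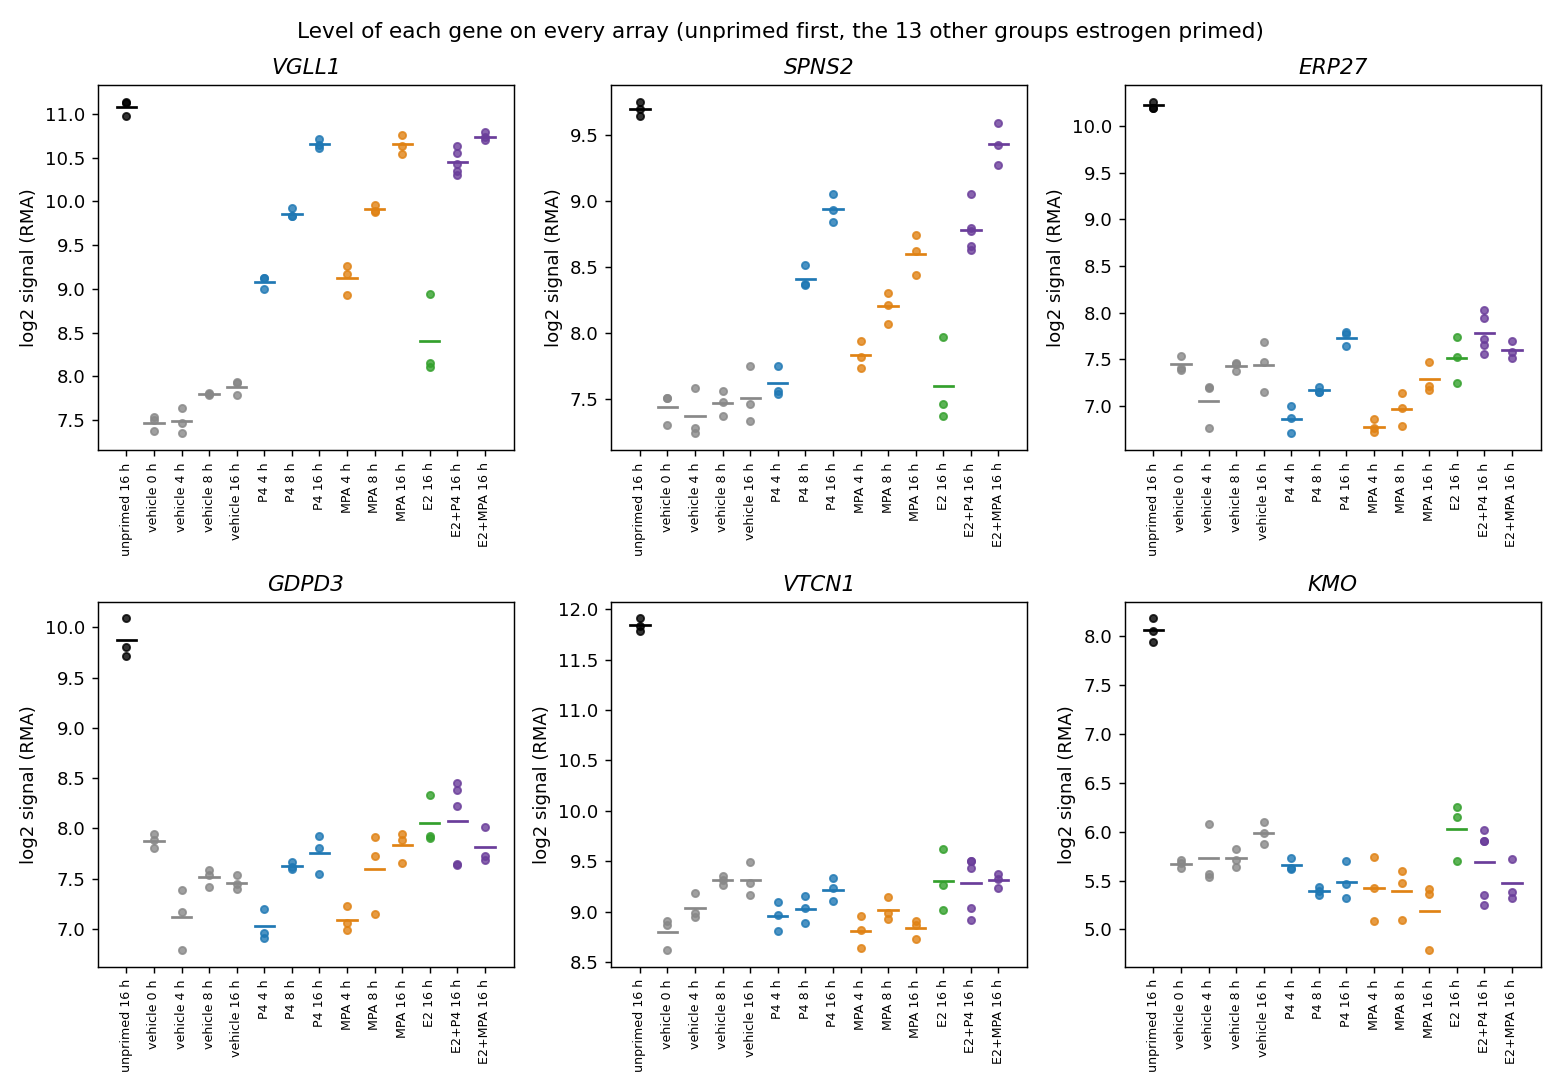
Log2 signal of each gene (vertical axis) on every array of the 14 groups (horizontal axis), with bars for group means. Unprimed arrays are the highest in every panel, VGLL1 and SPNS2 climb with hours of P4 or MPA, and the other genes stay near the vehicle arrays.

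*VGLL1* was the member with the largest fall and the largest return. Its levels were 10.98, 11.14 and 11.12 on the unprimed arrays and between 7.35 and 7.94 on the 12 primed vehicle arrays. With P4 they were 9.12, 9.0 and 9.12 at 4 h, 9.83, 9.92 and 9.83 at 8 h, and 10.71, 10.64 and 10.61 at 16 h. With MPA they were 9.17, 9.26 and 8.93 at 4 h, 9.89, 9.96 and 9.88 at 8 h, and 10.54, 10.63 and 10.76 at 16 h. Every progestin array lay above every vehicle array, every later time lay above the earlier one, and every progestin array lay below every unprimed array.

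*VGLL1* had thus risen within 4 h of either progestin. The rise with P4 was 1.59 ± 0.13 (log2 change ± SE, n = 3 against 3 in this and the other comparisons unless stated) at 4 h, with an adjusted p of 1.51e-11 by limma, and 2.06 ± 0.13 at 8 h, with an adjusted p of 1.88e-14 by limma. MPA raised it by 1.63 ± 0.13 at 4 h and 2.11 ± 0.13 at 8 h. At 16 h the changes against the 4 h and 8 h vehicles were 3.01 ± 0.11 with P4 and 3.00 ± 0.11 with MPA, which are 8.04-fold and 8.00-fold. All 4 comparisons at 4 h and 8 h and both at 16 h kept their call under every alternative tried. Against the 16 h vehicle the differences were 2.77 with P4 and 2.76 with MPA.

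The return of *VGLL1* can be expressed as a share of the log2 gap between vehicle and unprimed cells, a description because the unprimed arrays chose the gene. After 4, 8 and 16 h of P4 the regained share was 44.3%, 62.8% and 87.5%, and with MPA it was 45.3%, 64.3% and 87.3%. The 16 h P4 group was still 1.35-fold below unprimed cells. From 4 h to 16 h the level rose by 1.57 ± 0.13 with P4 and by 1.53 ± 0.13 with MPA (adjusted p = 1.68e-11 and 4.85e-11 by limma). The changes over vehicle at 8 h and 4 h did not pass the test against each other for either progestin (adjusted p = 0.219 for P4 and 0.299 for MPA by limma).

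The promoter of *VGLL1*, which returned, and those of *KMO* and *VTCN1*, which did not, are printed for comparison. Sequences are from RefSeq for GRCh38.p14, with the 250 bases before the annotated start, and they matched 3 of the 6 symbols (*ERP27*, *GDPD3* and *SPNS2* are named only). Capitals mark a TEAD site in *VGLL1* (GGAATG, read as CATTCC on the gene's strand, from 157 to 152 bases before the start) and a TATA box in *KMO* (TATAAA, from 29 to 24 bases before the start).
VGLL1, chrX:136531965-136532214, plus strand: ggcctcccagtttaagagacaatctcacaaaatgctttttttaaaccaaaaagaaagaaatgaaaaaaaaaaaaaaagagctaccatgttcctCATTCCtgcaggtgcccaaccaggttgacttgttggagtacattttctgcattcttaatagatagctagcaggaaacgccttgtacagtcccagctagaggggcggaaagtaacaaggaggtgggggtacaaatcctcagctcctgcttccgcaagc
KMO, chr1:241532128-241532377, plus strand: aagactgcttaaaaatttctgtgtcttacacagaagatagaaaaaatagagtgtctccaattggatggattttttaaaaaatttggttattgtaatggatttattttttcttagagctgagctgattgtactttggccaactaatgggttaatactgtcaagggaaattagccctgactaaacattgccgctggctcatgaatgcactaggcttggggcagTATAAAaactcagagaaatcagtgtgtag
VTCN1, chr1:117210928-117211177, minus strand: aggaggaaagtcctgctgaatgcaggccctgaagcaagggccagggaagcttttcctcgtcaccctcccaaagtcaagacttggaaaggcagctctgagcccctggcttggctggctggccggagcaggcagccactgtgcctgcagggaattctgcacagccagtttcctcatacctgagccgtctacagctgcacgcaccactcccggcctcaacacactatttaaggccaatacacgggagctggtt

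None of the 3 windows held an estrogen response element (GGTCA and TGACC with any 3 bases between, in 0.0399% of 35116 promoters of the same length), a single arm of it (GGTCA or TGACC, in 32.6%), a progesterone response element (GNACA and TGTNC with any 3 bases between, in 0.327%), a single arm of it (AGAACA or TGTTCT, in 12.4%) or an AP-1 site (TGANTCA, in 6.57%). Both strands were searched, and a full estrogen element holds the letters of its single arms. The TEAD site was in 11.9% of promoters on either strand and the TATA box in 6.80% on the gene's own strand. The AP-1, TEAD and TATA letters were added after the expression values were seen. A match is a description, and its absence says only that these letters are not in this window.

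*SPNS2*, the sphingosine 1-phosphate exporter, also returned, and with P4 or MPA and no added E2 its regained share was below that of *VGLL1* at each time. It measured 9.69, 9.64 and 9.75 on the unprimed arrays and between 7.24 and 7.75 on the 12 primed vehicle arrays. With P4 the arrays gave 7.54, 7.56 and 7.75 at 4 h, 8.37, 8.51 and 8.36 at 8 h, and 8.93, 8.84 and 9.05 at 16 h. With MPA they gave 7.94, 7.73 and 7.82 at 4 h, 8.07, 8.21 and 8.30 at 8 h, and 8.74, 8.62 and 8.44 at 16 h. The 4 h P4 arrays overlapped the 4 h vehicle arrays, and from 8 h on all progestin arrays were above all vehicle arrays and below all unprimed arrays.

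At 4 h the change of *SPNS2* was 0.25 ± 0.13 with P4, which did not pass the test (adjusted p = 0.308 by limma), and 0.46 ± 0.13 with MPA, which did (adjusted p = 0.0181 by limma). This MPA call was lost when MPA replicate 1 or 3 or vehicle replicate 2 or 3 of 4 h was left out (adjusted p from 0.0511 to 0.112) and when only the arrays compared were fitted (adjusted p = 0.285). At 8 h P4 raised it by 0.94 ± 0.13 and MPA by 0.72 ± 0.13 (adjusted p = 1.05e-06 and 7.59e-05 by limma). At 16 h the changes were 1.52 ± 0.11 with P4 and 1.18 ± 0.11 with MPA (2.87-fold and 2.26-fold). The share of the gap regained was 66.9% with P4 and 51.9% with MPA (65.5% and 49.9% from the 16 h vehicle). The 16 h MPA group was still 2.13-fold below unprimed cells. The calls at 8 h and 16 h held under every alternative.

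The change with P4 was larger at 8 h than at 4 h by 0.69 ± 0.18 for *SPNS2* (adjusted p = 0.0358 by limma, among 1.15% of clusters and 2.08% of named genes called higher). This call was lost in 9 of 18 alternatives, listed with the flagged results. With MPA the same difference was 0.26 ± 0.18 and did not pass (adjusted p = 0.794 by limma), and limma called 0 members there, with 1 at an unadjusted p under 0.05, and 1.16% of clusters. From 4 h to 16 h the level rose by 1.32 ± 0.13 with P4 and 0.77 ± 0.13 with MPA. Over the 13 primed groups the means of *SPNS2* and *VGLL1* had a Pearson r of 0.93, a description over groups that share the same 2 progestins, the highest among the 15 pairs of members.

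*ERP27* stayed near its vehicle level. Its unprimed arrays were at 10.19, 10.19 and 10.26, and the 12 primed vehicle arrays between 6.77 and 7.69. With P4 the arrays were at 7.0, 6.87 and 6.71 at 4 h, 7.15, 7.21 and 7.15 at 8 h, and 7.79, 7.64 and 7.77 at 16 h. With MPA they were at 6.72, 6.86 and 6.77 at 4 h, 6.98, 7.14 and 6.79 at 8 h, and 7.17, 7.22 and 7.47 at 16 h. The highest primed array of any group reached 8.03, 2.17 below the lowest unprimed array.

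The calls for *ERP27* were small and ran both ways. MPA lowered it at 8 h by -0.46 ± 0.13 (adjusted p = 0.0123 by limma), a call lost without MPA 8 h replicate 3 (-0.37, adjusted p = 0.102). P4 raised it at 16 h by 0.49 ± 0.11 against the 4 h and 8 h vehicles (adjusted p = 0.00113 by limma), which regained 16.5% of the gap. Against the 16 h vehicle the difference was 0.30 (10.7% of the gap), and the call was lost (adjusted p = 0.135). The change with MPA at 4 h was -0.27 ± 0.13 (adjusted p = 0.249 by limma) and would be called without vehicle 4 h replicate 1 (-0.41, adjusted p = 0.0427). The 4 h vehicle arrays of *ERP27* were at 6.77, 7.20 and 7.19 and those of 16 h at 7.69, 7.47 and 7.15. The vehicle means were 7.45, 7.05, 7.43 and 7.44 at 0, 4, 8 and 16 h, so the 4 h group was lower than the rest. That group is part of the reference of the 16 h tests. From 4 h to 16 h *ERP27* rose by 0.88 ± 0.13 with P4 (adjusted p = 4.52e-06 by limma) and by 0.50 ± 0.13 with MPA (adjusted p = 0.00664 by limma), the latter lost without MPA 16 h replicate 3 (0.41, adjusted p = 0.0651) and with only the arrays compared in the fit (0.0768).

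*GDPD3*, the lysophospholipid-cleaving enzyme, had 9.71, 9.80 and 10.09 on the unprimed arrays and between 6.79 and 7.94 on the 12 vehicle arrays. The P4 arrays had 6.91, 7.20 and 6.96 at 4 h, 7.67, 7.62 and 7.60 at 8 h, and 7.92, 7.55 and 7.80 at 16 h. The MPA arrays had 7.23, 7.06 and 6.99 at 4 h, 7.73, 7.91 and 7.15 at 8 h, and 7.66, 7.88 and 7.94 at 16 h. At 16 h these overlapped the 0 h vehicle arrays (7.88, 7.80 and 7.94), and the highest lay 1.77 below the lowest unprimed array.

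Against the 4 h and 8 h vehicles, *GDPD3* was raised at 16 h by 0.44 ± 0.16 with P4 (adjusted p = 0.0473 by limma) and by 0.51 ± 0.16 with MPA (adjusted p = 0.0179 by limma). Neither call held against the 16 h vehicle (0.29 and 0.37, adjusted p = 0.370 and 0.216) or against the mean of the 0, 4 and 8 h vehicles (0.25 and 0.33, adjusted p = 0.279 and 0.131). Without P4 16 h replicate 1 or 3, any 8 h vehicle array or vehicle 4 h replicate 1 or 3 the P4 call was lost as well (adjusted p from 0.0539 to 0.231), as was the MPA call without MPA 16 h replicate 2 or 3 (adjusted p = 0.0755 and 0.0910). Fitting only the arrays compared, or leaving off the filter on low values, also ended the P4 call (adjusted p = 0.0720 and 0.0610). From 4 h to 16 h *GDPD3* rose by 0.73 ± 0.18 with P4 and 0.74 ± 0.18 with MPA (adjusted p = 0.00421 and 0.00503 by limma), while the vehicle arrays were at 6.79, 7.39 and 7.17 at 4 h and at 7.54, 7.45 and 7.40 at 16 h.

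*VTCN1*, the B7 family protein, did not rise with either progestin at any time. Its unprimed arrays had 11.78, 11.91 and 11.83 and the 12 vehicle arrays ranged from 8.62 to 9.49. P4 gave 8.81, 9.10 and 8.97 at 4 h, 8.89, 9.16 and 9.04 at 8 h, and 9.33, 9.23 and 9.11 at 16 h. MPA gave 8.96, 8.82 and 8.64 at 4 h, 8.93, 9.15 and 8.99 at 8 h, and 8.73, 8.91 and 8.87 at 16 h. All of these lay within the range of the vehicle arrays over the whole time course.

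The only *VTCN1* call with a progestin was a fall of -0.34 ± 0.12 with MPA at 16 h (adjusted p = 0.0368 by limma). The call was lost without any single MPA 16 h array, without vehicle 4 h replicate 3 or without vehicle 8 h replicate 2 or 3 (adjusted p from 0.0547 to 0.185), with the array interquartile range in the fit (adjusted p = 0.197) and against the mean of the 0, 4 and 8 h vehicles (-0.21, adjusted p = 0.192). With P4 at 16 h the change was 0.05 ± 0.12 (95% interval from -0.19 to 0.29), so that 1.75% of the gap was regained (-3.47% from the 16 h vehicle).

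*KMO*, the kynurenine enzyme, was at 7.94, 8.05 and 8.18 on the unprimed arrays and between 5.54 and 6.10 on the 12 vehicle arrays. With P4 it was at 5.73, 5.62 and 5.63 at 4 h, 5.39, 5.35 and 5.43 at 8 h, and 5.46, 5.32 and 5.7 at 16 h. With MPA it was at 5.42, 5.09 and 5.74 at 4 h, 5.10, 5.60 and 5.47 at 8 h, and 4.79, 5.36 and 5.41 at 16 h. At 8 h and at 16 h all arrays of either progestin lay below the vehicle arrays of the same time, which were at 5.64, 5.82 and 5.71 and at 6.10, 5.99 and 5.87. How many of all clusters separate in this way was not counted. The 16 h vehicle arrays helped to choose *KMO*, and their mean (5.99) was above those of the 0, 4 and 8 h vehicles (5.67, 5.73 and 5.73). At 8 h the change with MPA was -0.34 ± 0.19 and did not pass (adjusted p = 0.305 by limma).

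MPA lowered *KMO* further at 16 h, by -0.54 ± 0.16 (adjusted p = 0.0142 by limma). The call was lost without MPA 16 h replicate 1 (-0.34, adjusted p = 0.235), the array at 4.79, with only the arrays compared in the fit (adjusted p = 0.0793) and with the array interquartile range in the fit (adjusted p = 0.0771). With P4 the changes were -0.34 ± 0.19 at 8 h and -0.24 ± 0.16 at 16 h, and neither passed (adjusted p = 0.314 and 0.385 by limma), although the change at 8 h was called with only the arrays compared in the fit (adjusted p = 0.0435). The gap to unprimed cells therefore widened in the mean of each progestin group, and the regained share was -10.1% with P4 and -23.3% with MPA at 16 h (-23.8% and -38.7% from the 16 h vehicle).

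**Figure D2:**
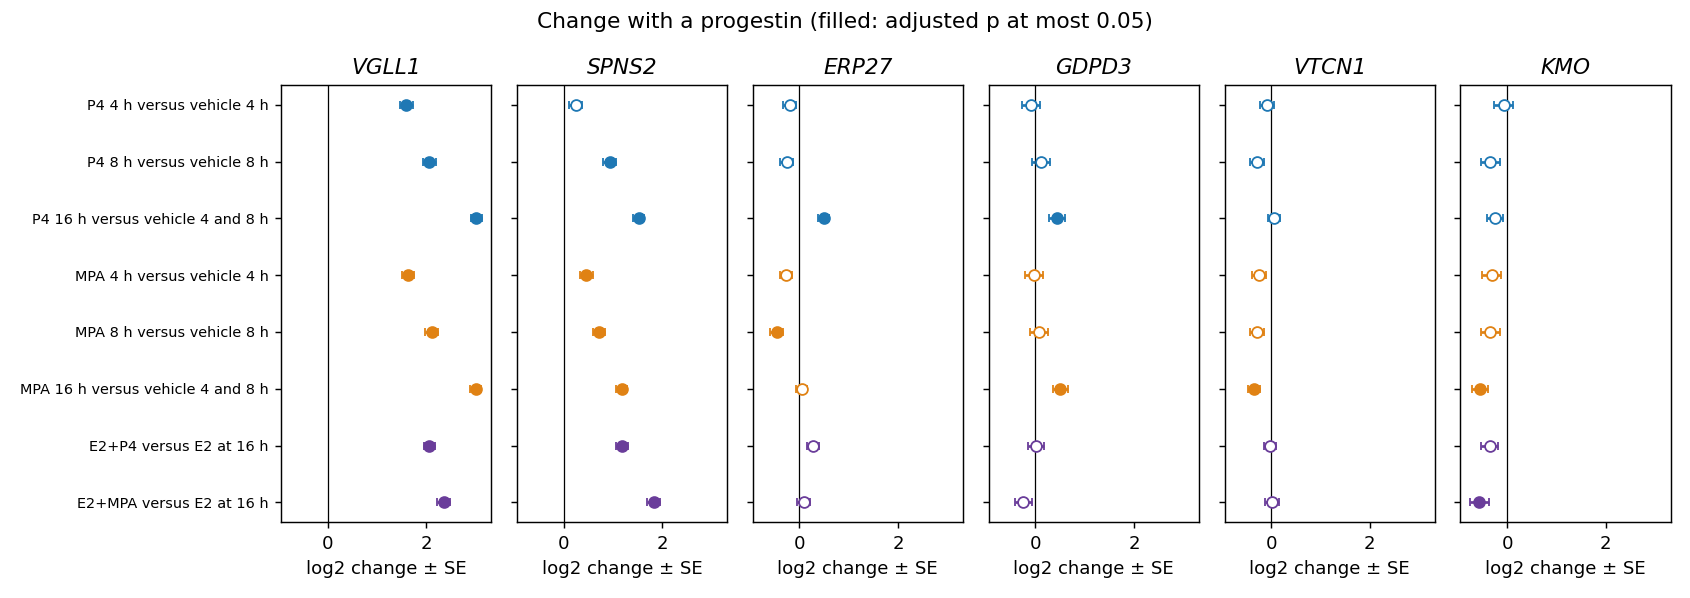
Log2 change of each gene (horizontal axis, ± SE of the limma fit) in the 8 progestin comparisons (rows), with filled points for an adjusted p of at most 0.05. VGLL1 is raised in all 8, SPNS2 in 7, and the points of the other genes lie between -0.56 and 0.51.

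Counted over the 6 members, 1 was raised and 0 were lowered with P4 at 4 h, where 4.55% of all clusters were called higher and 3.35% lower. With P4 at 8 h 2 were raised and 0 lowered (6.06% of clusters higher and 7.22% lower), and with P4 at 16 h 4 were raised and 0 lowered (9.88% higher and 10.9% lower). With MPA 2 were raised and 0 lowered at 4 h (4.16% higher and 4.12% lower) and 2 were raised and 1 lowered at 8 h (6.30% higher and 7.96% lower). At 16 h MPA raised 3 and lowered 2 (8.18% higher and 12.3% lower). Among named genes alone these shares were 6.88% higher and 5.43% lower, 9.85% and 11.4%, and 15.5% and 15.8% with P4 at 4, 8 and 16 h. With MPA they were 6.64% and 6.65%, 10.1% and 12.5%, and 12.5% and 18.4%. Limma gave an unadjusted p under 0.05 for 1, 2 and 4 members with P4 at 4, 8 and 16 h, and for 3, 4 and 5 with MPA. The median change of the 6 was 0.47 with P4 and 0.28 with MPA at 16 h, against -0.00 and 0.03 over all clusters tested. Between 4 h and 16 h of the same progestin 4 members were raised with P4 and 4 with MPA. There 8.13% and 5.78% of clusters, and 13.9% and 9.74% of named genes, were called higher. The vehicle means of *ERP27* and *GDPD3* were also lower at 4 h (7.05 and 7.12) than at 16 h (7.44 and 7.46). Against the 16 h vehicle, whose arrays helped to choose the genes, the P4 calls that remained were those of *VGLL1* and *SPNS2*, which is a description.

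**Figure D3:**
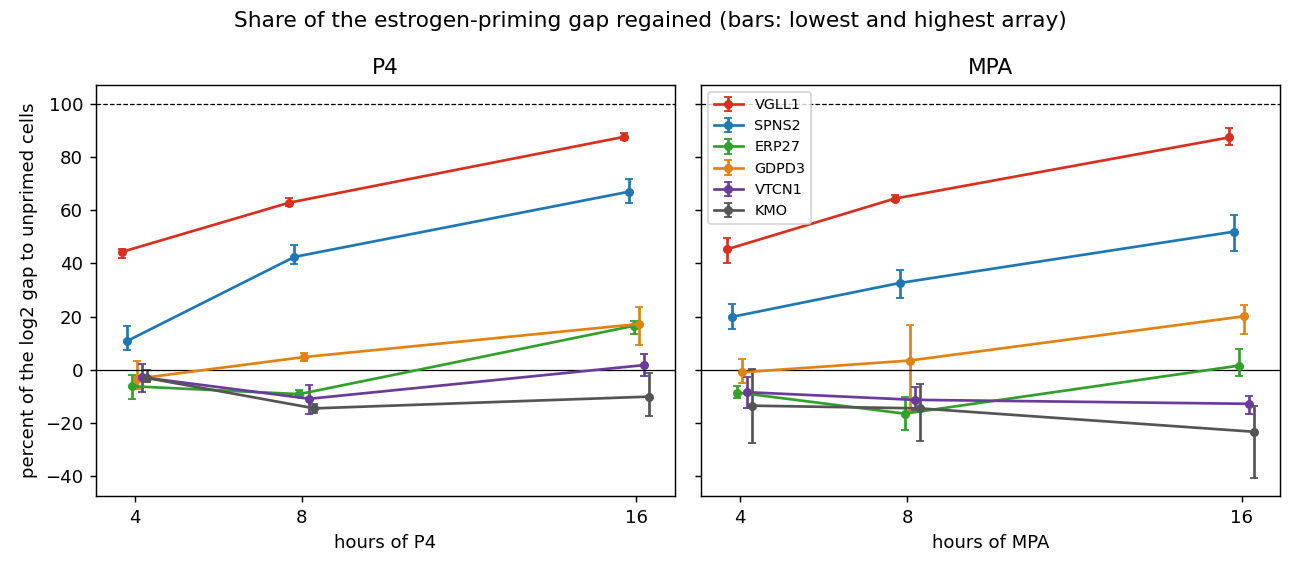
Percent of the log2 gap between primed vehicle and unprimed cells (vertical axis; 0 is the vehicle level used in the tests, and the dashed line is the unprimed mean) against hours of P4 or MPA, with bars from the lowest to the highest array. VGLL1 reaches 87.5% and SPNS2 66.9% with P4 at 16 h, and no other gene passes 20.1% in its mean.

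P4 and MPA were then compared directly at matched doses and times, in 4 comparisons (at 4, 8 and 16 h, and at 16 h with E2), with p-values adjusted over all clusters. MPA is a synthetic progestin that differs from P4 by an added methyl group and an added acetoxy group. None of the 6 members passed limma's test between MPA and P4 at 4, 8 or 16 h (0 called each time, and 0, 0 and 3 with an unadjusted p under 0.05), where 0.0145%, 0.00242% and 0.0121% of clusters were called. For *VGLL1* MPA minus P4 was 0.04 at 4 h (95% interval from -0.22 to 0.30), 0.05 at 8 h (-0.21 to 0.31) and -0.01 at 16 h (-0.26 to 0.25). These intervals, which are not corrected for the number of clusters, bound the difference and do not show that the compounds act alike.

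The 3 members with the lower unadjusted p at 16 h were all lower with MPA than with P4. The difference was -0.45 ± 0.13 for *ERP27* (adjusted p = 0.374 by limma), -0.39 ± 0.14 for *VTCN1* (adjusted p = 0.456) and -0.34 ± 0.13 for *SPNS2* (adjusted p = 0.502). The 3 MPA arrays lay below the 3 P4 arrays in each of these genes, which were singled out by their p-values. How many of all clusters separate in this way was not counted, so nothing is read from it. The 95% interval of MPA minus P4 at 16 h was -0.71 to -0.18 for *ERP27*, -0.66 to -0.11 for *VTCN1*, -0.60 to -0.08 for *SPNS2*, -0.69 to 0.08 for *KMO* and -0.30 to 0.45 for *GDPD3*.

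Adding E2 again for 16 h, with no progestin, raised *VGLL1* and *GDPD3*. The E2 arrays of *VGLL1* were at 8.15, 8.94 and 8.11, above all vehicle arrays, and the change was 0.75 ± 0.11 against the 4 h and 8 h vehicles (adjusted p = 4.63e-04 by limma). Without E2 replicate 2, the array at 8.94, it was 0.48 and still called, and against the 16 h vehicle it was 0.51 and not called (adjusted p = 0.343), as with only the arrays compared in the fit (adjusted p = 0.529). *GDPD3* was at 7.90, 8.33 and 7.92 and changed by 0.74 ± 0.16 (adjusted p = 0.0285 by limma), a call that held in 8 of 17 alternatives. It was lost without any single E2 array, vehicle 4 h replicate 1 or vehicle 8 h replicate 1 or 2 (adjusted p from 0.0520 to 0.275), with only the arrays compared in the fit (0.420), and against the 16 h vehicle (0.747) or the mean of the 0, 4 and 8 h vehicles (0.132). These 2 members were raised and 0 lowered, where 0.150% of clusters were called higher and 0.162% lower (0.223% and 0.282% of named genes). E2 replicate 2 was the highest of its group for *VGLL1*, *SPNS2*, *ERP27*, *VTCN1* and *GDPD3*.

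With E2 in the overlay, the progestins raised *VGLL1* and *SPNS2*. The 5 E2+P4 arrays of *VGLL1* were at 10.30, 10.63, 10.35, 10.43 and 10.55 and the 3 E2+MPA arrays at 10.79, 10.74 and 10.70. Against E2 alone, P4 raised it by 2.06 ± 0.11 (n = 5 against 3, adjusted p = 7.03e-16 by limma) and MPA by 2.35 ± 0.13 (adjusted p = 4.06e-16 by limma). All progestin arrays were above the highest E2 array. The share of the gap between E2 and unprimed cells that was regained was 76.5% with P4 and 87.4% with MPA.

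*SPNS2* was at 8.63, 9.05, 8.79, 8.66 and 8.77 with E2+P4 and at 9.27, 9.59 and 9.42 with E2+MPA, against 7.46, 7.97 and 7.37 with E2. P4 raised it by 1.18 ± 0.12 and MPA by 1.83 ± 0.13 (adjusted p = 1.14e-09 and 4.39e-13 by limma), and MPA regained 87.4% of its gap. The highest E2+MPA array lay 0.05 below the lowest unprimed array. In total 2 members were raised and 0 lowered by E2+P4 against E2, where 5.95% of clusters were called higher and 7.92% lower, and 2 were raised and 1 lowered by E2+MPA, where 8.04% were called higher and 11.8% lower. Among named genes these shares were 9.90% and 11.8% with E2+P4, and 12.8% and 18.0% with E2+MPA. Both comparisons share the E2 arrays. The change of *ERP27* was 0.27 ± 0.12 with E2+P4 (adjusted p = 0.130 by limma) and was called without E2 replicate 2 (0.39, adjusted p = 0.0402), with the array interquartile range in the fit (0.37, adjusted p = 0.00589) and with quantile normalization repeated (0.32, adjusted p = 0.0335).

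The lowered gene was *KMO*, which measured 5.7, 6.15 and 6.25 with E2 and 5.38, 5.32 and 5.72 with E2+MPA. The change was -0.56 ± 0.19 (adjusted p = 0.0312 by limma) and the groups overlapped, since the highest E2+MPA array was just above the lowest E2 array. The call was lost without E2 replicate 2 or 3 or E2+MPA replicate 1 or 2 (adjusted p from 0.103 to 0.165), with only the arrays compared in the fit (adjusted p = 0.0883) and with the array interquartile range in the fit (adjusted p = 0.0998). For E2+P4 the change was -0.35 ± 0.17 (adjusted p = 0.212 by limma), with arrays at 5.90, 5.25, 5.90, 6.02 and 5.35.

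E2+MPA and E2+P4 differed in *SPNS2*, which was 0.65 ± 0.12 higher with MPA (95% interval from 0.41 to 0.88, adjusted p = 3.32e-04 by limma), and the groups did not overlap. It was 1 of 6 members called, where 2.66% of clusters and 4.50% of named genes were called higher with E2+MPA. *VGLL1* was 0.29 ± 0.11 higher with E2+MPA and did not pass (adjusted p = 0.151 by limma). *SPNS2* was also 0.83 ± 0.13 higher with E2+MPA than with MPA alone (adjusted p = 1.68e-04 by limma). There 1.36% of clusters and 2.32% of named genes were called higher, and again *SPNS2* was the only member called. *VTCN1* was 0.47 ± 0.14 higher with E2+MPA than with MPA (adjusted p = 0.0621 by limma) and was called under the 50th percentile filter (0.0439), with the array interquartile range in the fit (0.0203) and with quantile normalization repeated (0.0458). Both calls for *SPNS2* were lost with only the arrays compared in the fit (adjusted p = 0.0809 and 0.191), and held in the other alternatives. Between E2+P4 and P4 alone limma called 0 members and 0% of clusters, with 0 members at an unadjusted p under 0.05, and the change of *SPNS2* was -0.16 ± 0.12.

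The E2+P4 arrays were spread in several genes. *GDPD3* was at 8.22, 7.64, 8.38, 8.45 and 7.65, *VTCN1* at 9.50, 8.92, 9.50, 9.43 and 9.04, and *KMO*, as above, was lowest on the same arrays. Replicates 2 and 5 had the lowest values of these 3 genes and of *ERP27* (7.72, 7.65, 8.03, 7.94 and 7.56), whereas *VGLL1* was highest on both and *SPNS2* on replicate 2. Over all clusters tested, the deviations of these 2 arrays from their group mean had a correlation of -0.00, against -0.48 to -0.13 for the other pairs of E2+P4 arrays. Deviations from a shared mean correlate negatively by construction, so a value near 0 is not the level of unrelated arrays. The part of these arrays in the results was not tested beyond leaving out each in turn.

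The members were also set beside all named genes that were called lower after priming and were at least 2-fold lower, 105 in number. Of these, 38 were raised by P4 at 16 h (36.2%) and 27 lowered (25.7%), against 15.5% and 15.8% of all named genes tested. With MPA at 16 h 36 were raised and 38 lowered, against 12.5% and 18.4%. The median change of the 105 genes was 0.05 with P4 and -0.10 with MPA. Genes that were lower after priming thus changed with progestins in both directions.

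By the size of the P4 change at 16 h, *VGLL1* ranked 2 of 105, after the microRNA gene *MIR21* (3.22), and *SPNS2* ranked 9. *ERP27* ranked 31, *GDPD3* 36, *VTCN1* 53 and *KMO* 70. The 2 other genes among the largest falls went opposite ways, with a P4 change at 16 h of 2.19 for *KRT80*, a keratin gene, and of -0.84 for *OXGR1*, a receptor for oxoglutarate. *KRT80* regained 91.8% of its gap.

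**Figure D4:**
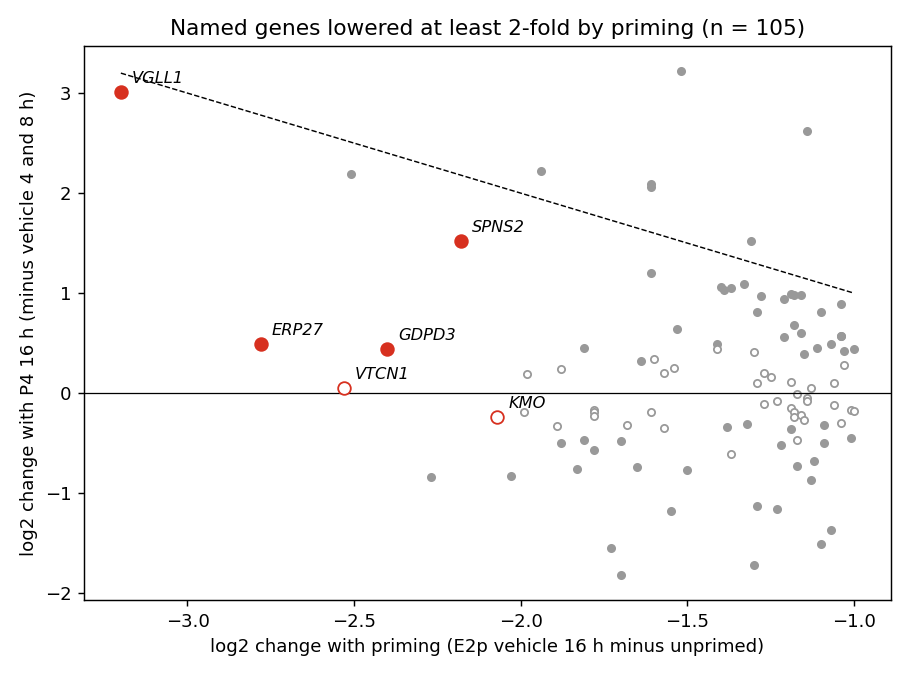
Log2 change with P4 at 16 h (vertical axis) against the log2 change with priming (horizontal axis) for the 105 named genes lowered at least 2-fold, with the 6 members in red and filled points for an adjusted p of at most 0.05 with P4. Points on the dashed line regain as much as priming took, and VGLL1 and SPNS2 lie nearest to it among the members.

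Genes related to each member were counted from lists, leaving out the member itself. Listed genes without a symbol on the arrays, or under the filter, could not be counted. With members included, 7 of 15 kynurenine, 10 of 20 disulfide isomerase and 8 of 16 B7 family genes were tested. In the other lists these were 18 of 21 around *VGLL1*, 19 of 24 around *SPNS2* and 13 of 14 around *GDPD3*. All are named genes, of which P4 at 8 h raised 9.85% and lowered 11.4%. For P4 at 16 h these shares were 15.5% and 15.8%, and for E2+P4 against E2 they were 9.90% and 11.8%. They are above the shares of all clusters given beside the counts. Around *VGLL1*, P4 at 8 h raised 3 of 17 tested TEAD cofactors, TEADs, targets and Hippo pathway genes and lowered 1 (6.06% and 7.22% of all clusters), with a median change of 0.13 against 0.00 over all clusters. The raised genes were *STK3*, a Hippo kinase gene (0.67 ± 0.11), *WWTR1*, which encodes the TEAD coactivator TAZ (0.50 ± 0.09), and *TEAD3* (0.31 ± 0.09), and the lowered gene was *AMOTL1* (-0.41 ± 0.09), of the angiomotin family. At 16 h P4 raised 8 and lowered 2 (9.88% and 10.9% of all clusters), and E2+P4 against E2 raised 7 and lowered 1 (5.95% and 7.92%). The listed targets *CCN2* and *ANKRD1* were called in none of these comparisons (0.48 and 0.17 with P4 at 8 h, 0.04 and -0.01 with E2+P4). Both were raised by E2+MPA against E2 (1.22 and 1.20).

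Around *SPNS2*, 4 of 18 genes of sphingosine 1-phosphate metabolism, transport and reception were raised by P4 at 8 h and 2 lowered (6.06% and 7.22% of all clusters), with a median change of -0.01 against 0.00 over all clusters. The largest change was in *SGPP2*, a sphingosine 1-phosphate phosphatase gene, at 2.25 ± 0.18 (adjusted p = 6.42e-12 by limma), and it was 3.23 ± 0.16 for E2+P4 against E2. The lipid phosphatase gene *PLPP1* rose by 1.43 ± 0.12 and the receptor gene *S1PR2* by 0.84 ± 0.11, while *PLPP3* fell by 0.68 on the log2 scale.

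Around *KMO*, 6 other genes of the kynurenine pathway were tested, and P4 at 8 h lowered 3 and raised 1 (7.22% and 6.06% of all clusters), with a median change of -0.18 against 0.00 over all clusters. *KYNU*, kynureninase, which uses the product of KMO, changed by -1.63 ± 0.20 (adjusted p = 1.24e-07 by limma), *AHR*, a receptor that binds kynurenine, by -0.79 ± 0.07 and *QPRT*, further down the pathway, by -0.45 ± 0.13. *AFMID*, upstream of KMO, changed by 0.68 ± 0.09. For E2+P4 against E2, 0 were raised and 2 lowered (*KYNU*, -1.08 ± 0.18, and *AHR*, -0.30 ± 0.06), where 5.95% of clusters were called higher and 7.92% lower.

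The lists around the other genes were counted in the same way. With 6.06% of all clusters called higher and 7.22% lower by P4 at 8 h, of 9 protein disulfide isomerase family genes beside *ERP27* it raised 3, *AGR3* (1.44 ± 0.18), *TXNDC11* (0.69 ± 0.08) and *AGR2* (0.35 ± 0.11), and lowered 0. Of 12 glycerophosphodiesterase and N-acylethanolamine genes beside *GDPD3*, it raised 2, *GDPD5* (1.90 ± 0.11) and *FAAH* (0.78 ± 0.08), and lowered 2, *ABHD4* (-0.43 ± 0.12) and *NAPEPLD* (-0.41 ± 0.13). Of 7 B7 family genes beside *VTCN1*, it raised *ICOSLG* (0.51 ± 0.13) and lowered *NCR3LG1* (-0.47 ± 0.12).

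The named genes whose 13 primed group means followed those of a member most closely are given with Pearson's r as a description. For *VGLL1* they were *USP54* (0.993), *NELL2* (0.986) and *VDAC1* (0.985), and for *SPNS2* *KLC1* (0.994), *CEP55* (0.986) and *TTC9* (0.983). Only *TTC9* of these 6 was also at least 2-fold higher in unprimed than in primed vehicle cells, by 1.18 on the log2 scale. For *NELL2*, which rose by 2.83 with P4 at 16 h, that difference was -0.15. The closest genes to the members that did not return had lower values, from 0.955 for *STAM* with *ERP27* to 0.835 for *APC* with *VTCN1*, and included *CLDN1* (0.946 with *ERP27*), *RNF11* (0.935 with *GDPD3*), *TM4SF18* (0.846 with *VTCN1*) and *UQCC6* (0.889 with *KMO*). Over the 13 groups *STAM* spanned only 0.24, *APC* 0.28, *RNF11* and *TM4SF18* 0.35 and *UQCC6* 0.46 on the log2 scale, whereas *CLDN1* spanned 1.85. All these genes were picked as the closest among 13466 named genes over 13 means. High values of r arise from such a search alone, so shared control is not read from them.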

How the data were processed

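Affymetrix Gene ST arrays measured total RNA of 44 ZR-75-1 samples in 14 groups. The authors deposited RMA values on the log2 scale for 53617 transcript clusters (RMA and limma are named without versions in the submitters' processing notes). RMA quantile normalization sets the probe signals of all arrays to a common distribution, so changes are relative to the bulk of clusters. The cluster values made from them still differed between arrays (medians from 5.52 to 5.67, interquartile ranges from 2.89 to 3.14). The labels name Gene 1.0 ST, whereas the cluster identifiers matched Gene 2.0 ST annotation, on which the gene names rest (16098 clusters with 1 symbol, 37519 unnamed here). Coordinates and promoters are RefSeq's for GRCh38.p14. The label of the 0 h vehicle gives another ethanol dilution than the other vehicles.

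Clusters above the 30th percentile of their array on at least 3 arrays (41374) were fitted with limma 3.58.1 in R 4.3.3 as 14 group means with 30 residual degrees of freedom, two-sided, with Benjamini-Hochberg adjustment. The pipeline was tested on simulated data. The members and lists were chosen with earlier results of these data known. Named genes were the 6 members, for each the 3 genes most alike over 13 group means, and up to 4 called genes per list (P4 at 8 h or E2+P4 against E2). *CCN2* and *ANKRD1* were named besides, as listed targets not called there. The number of arrays limits the precision. Alternatives were other filters, normalizations, references, a replicate block and leaving out each array.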

Additional observations from a re-analysis of the deposited data

Results flagged for a closer look

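The change of *SPNS2* with P4 was 0.69 larger at 8 h than at 4 h on the log2 scale (adjusted p = 0.0358 by limma), the only member for which the change over vehicle differed between 8 h and 4 h by its own test. All 3 P4 arrays at 8 h (8.36 to 8.51) lay above the 3 at 4 h (7.54 to 7.75), while the vehicle arrays of both times overlapped. How many of all clusters separate in this way was not counted. The call was lost with only the arrays compared in the fit (adjusted p = 0.0845) and without P4 4 h replicate 1 or 2, any P4 8 h replicate, vehicle 4 h replicate 1 or vehicle 8 h replicate 1 or 3, where the difference stayed between 0.58 and 0.72 and the adjusted p between 0.0578 and 0.144. No array of the E2+P4 group stood apart from the other 4 by Dixon's test in any member. That test looks for a single outlying array and can miss arrays that deviate together. E2+P4 replicates 2 and 5 were both low in *GDPD3* (7.64 and 7.65, against 8.22 to 8.45), so nothing is read from it.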

How the results depend on the processing

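Of 1656 values of single members under the alternatives, 1578 kept their side of the threshold, 63 lost a call, 15 gained one and 0 called values changed sign. Most of the 1656 belonged to results not called in the main fit, which had no call to lose. Among uncalled values, 78 changed sign. *VGLL1* kept its calls with progestins in all alternatives run. Counts of members that moved by over 1.5 times, and a few that moved by less, were as follows. With only the compared arrays in the fit, and so fewer of them, P4 at 8 h lowered 1 member (*KMO*), MPA raised 1 at 4 h and lowered 1 at 16 h, E2+MPA lowered 0 against E2, E2 raised 0, E2+MPA raised 0 against E2+P4 and 0 against MPA, and the difference between 8 h and 4 h of P4 was called for 0. With the interquartile range in the fit, MPA at 16 h and E2+MPA against E2 lowered 0, E2+MPA raised 2 against MPA, E2+P4 raised 3 against E2, and 2 were called among the vehicles. Quantile normalization again gave 2 for E2+MPA against MPA, 3 for E2+P4 against E2 and 2 for the vehicles, and the 50th percentile filter gave 2 for E2+MPA against MPA and 1 for the vehicles. Against the 16 h vehicle, whose arrays helped to choose the genes, P4 raised 2, MPA raised 2 and E2 raised 0. Against the mean of the 0, 4 and 8 h vehicles MPA lowered 1 and E2 raised 1. Leaving out 1 array gave 0 to 1 members for the vehicles, E2+MPA against E2 (lowered), MPA at 4 h and at 8 h (lowered) and the P4 difference between 8 h and 4 h, 1 to 2 for E2 and for MPA at 4 h (raised), 0 to 2 for MPA at 16 h (lowered), and, raised, 3 to 4 for P4 at 16 h, 2 to 3 for MPA at 16 h and 2 to 3 for E2+P4 against E2.

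Replicate numbers showed no clear pairing of the samples. Deviations of same-numbered arrays had a mean correlation of 0.0204 (-0.55 to 0.55), against -0.00831 for different numbers, and 18 of 42 arrays correlated best with their own number. These values cannot establish that no pairing existed. With the replicate block 1 member, *GDPD3*, was called among the vehicles (adjusted p = 0.0417), and no other member's call changed. The share of clusters called fell from 7.90% to 1.78% for P4 and from 8.28% to 1.18% for MPA at 4 h with only the compared arrays, from 20.5% to 12.6% for MPA at 16 h, from 13.9% to 7.18% for E2+P4 against E2, from 6.08% to 0.0435% for E2+MPA against E2+P4, from 2.23% to 0% for E2+MPA against MPA, to 3.35% for MPA between 4 h and 16 h (main value 12%), from 2.17% to 0.918% for the P4 difference between 8 h and 4 h, from 2.03% to 0.225% among the vehicles and from 0.312% to 0.00242% for E2 (0.00483% against the 16 h vehicle). With the interquartile range in the fit it rose to 0.730% for E2, 3.57% for E2+MPA against MPA and 4.78% among the vehicles. Averaging several clusters of a gene was not run, since each member had 1. The small number of arrays in a group limits what can be told of the smaller changes.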
